A study of Mus musculus with 629 samples.

Results

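The cells described here were the 98 macrophages of a Notch3 knockout (KO) that were sorted onto plate 060s, chosen by their cell type label, genotype label and plate. They were 98 of the 629 brain cells of the series, of its 400 macrophages and of its 119 KO macrophages. Values are given for the 84 cells with at least 50000 gene counts, a total that left out the ribosomal RNA gene Rn18s and the ERCC spike-in sequences. The 2 cells just under that limit had 46102 and 47491 gene counts, and the 2 just over it had 51593 and 52944. All cells came from brains of adult C57BL/6 mice of the reporter line SM22-Cre;Rosa26-stop-tdTomato, labelled Notch3 WT, Het or KO, with no other agent named. In that line a Cre recombinase under the promoter of SM22 (Tagln), a smooth muscle gene, switches on a red fluorescent protein, and the WT and Het groups carry it as well. Single cells were sorted by fluorescence into 384-well plates and sequenced as full-length polyadenylated cDNA by SMART-seq2. The sorting gate and the cells in which Notch3 was deleted are not given in the sources used here. No label names an animal, so the 98 cells were treated as 1 sample, every value below is a description, and no p-value is given.

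Perivascular macrophages are resident macrophages of the brain that lie along arterioles and venules, outside the endothelium and inside the glial limit. They take up proteins, lipids and debris from the fluid around vessels through scavenger receptors such as Mrc1 (CD206), Stab1 and Cd163, and break them down in lysosomes. They differ from microglia, the macrophages of the brain tissue itself, which carry P2ry12, Tmem119 and Sall1. Like other macrophages they can sense interferon, which switches on antiviral genes such as the Ifit, Oas and Mx families.

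Plate 060s held 148 cells, all labelled KO: the 98 macrophages, 47 microglia and 3 cells of a type labelled 7. The other 7 macrophage pools (a genotype within a plate) held 14 to 133 cells with at least 50000 gene counts. The 84 cells had 51593 to 397959 gene counts each (median 129966) and 2388 to 5006 genes with a count. Rn18s took 23.5% to 57.4% of their counts (median 37.5%), and mitochondrial genes took 0.922% to 4.50% of the gene counts. The plate carried 1 genotype, and Y-linked genes had counts in 78.6% of the 98 cells and Xist in 1.02%. The Het macrophages of plates 056s and 524s and the WT macrophages of plates 059s and 529s also had mostly Y-linked counts (68.8% to 91.4% of cells, with Xist in 10.6% to 19.2%). The Het macrophages of plate 529s, the KO macrophages of plate 524s and the WT macrophages of plate 530s had Xist in 93.5% to 100% of cells and Y-linked counts in 0% to 5.26%. Every comparison with another pool was also one between plates. Genotype and plate cannot be told apart against the Het and WT pools, nor sex and plate against the KO macrophages of plate 524s. Against the WT macrophages of plate 530s and the Het macrophages of plate 529s, sex differed as well as genotype and plate. Notch3 itself had a count in 1 of the 84 cells (0.159 CPM, gene counts scaled to the same total in every cell or pool), in 0 of the 45 KO microglia of the plate (upper limit 6.67%) and in 0 of 133 WT macrophages of plate 530s (upper limit 2.26%). Its level in all 8 macrophage pools lay between 0 and 4.04 CPM, so its counts could not check the genotype labels in these cells.

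The macrophage label held in the pool. Of the 84 cells, 82 (97.6%) had counts of all 4 perivascular markers and all 84 had at least 3. Mrc1, the mannose receptor, ranged from 3235 to 18769 CPM over the cells with a median of 8324. Stab1, a receptor for modified lipoproteins, ranged from 1930 to 24572 CPM (median 8587). F13a1, the A subunit of coagulation factor XIII, ranged from 560 to 10123 CPM (median 3656). These 3 genes were present in every cell, while Lyve1, a hyaluronan receptor, ran from 0 to 8977 CPM (median 1752) and was at 0 in 2 cells. The sum of 6 microglia genes (Tmem119, P2ry12, Siglech, Sall1, Olfml3 and Slc2a5) was 15.6 to 2002 CPM in the macrophages, with a median of 533. In the 45 KO microglia of the same plate it was 3279 to 37604 CPM, with a median of 14896, so no cell of either kind fell in the range of the other. The macrophage markers separated the labels less. The summed 4 markers were 8739 to 43096 CPM in the macrophages and 253 to 23925 CPM in the microglia, of which 21 reached the lowest macrophage. Counts of Lyve1 were found in 38 of the 45 microglia, whose median depth was 195515, against 82 of the 84 macrophages with a median depth of 129966.

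**Figure D1:**
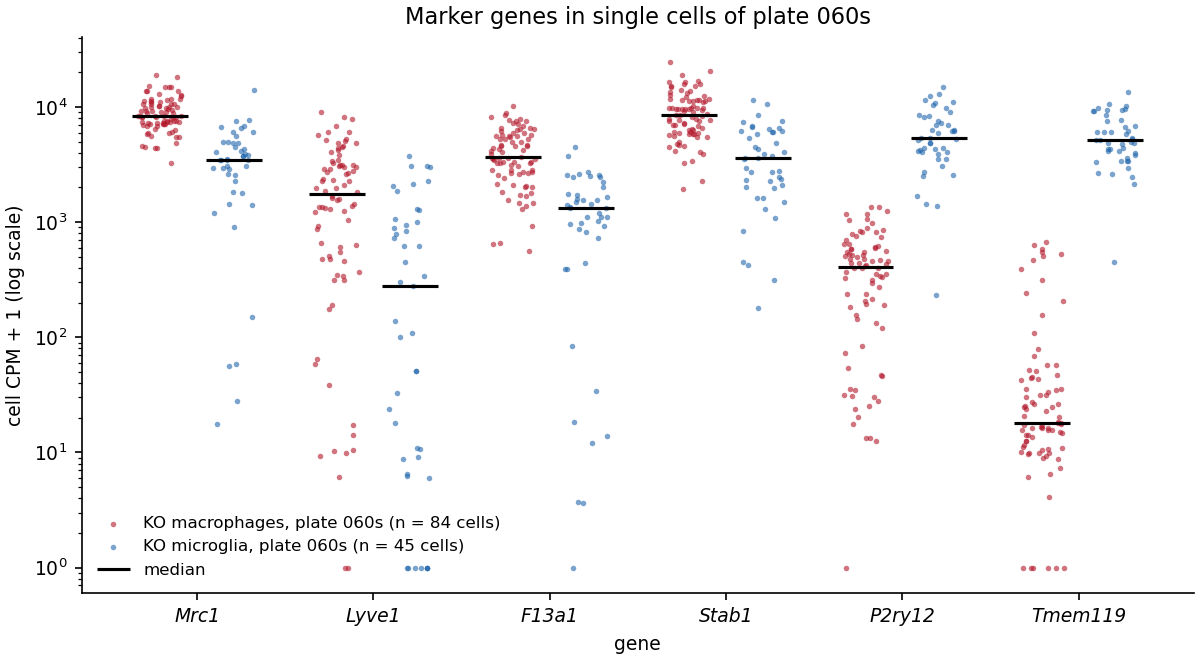
Levels of 4 macrophage and 2 microglia genes in single cells of plate 060s, in CPM + 1 on a log axis. Each point is 1 cell and each bar a median. P2ry12 and Tmem119 separate the 84 macrophages from the 45 microglia more widely than the 4 macrophage markers do.

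Several defining markers of other cell types were at 0. Tagln, Myh11 and Kcnj8 of mural cells, Flt1 and Ly6c1 of endothelium, Cd3e and Nkg7 of lymphocytes, Ly6g of neutrophils and Flt3 of dendritic cells had no count in any of the 84 cells (upper limit 3.57%). For Tagln the same holds although its promoter drives the Cre of the reporter line. Other members of these lists had counts in some cells: 5 of 8 mural, 4 of 8 endothelial, 5 of 8 lymphocyte and 12 of 14 monocyte, neutrophil and dendritic cell genes. The 4 list sums were at 0 in 71, 51, 71 and 18 of the 84 cells. Their highest cells were at 196, 204, 19.4 and 932 CPM. Zbtb46, a transcription factor of dendritic cells, had counts in 21 of the 84 cells at 67.5 CPM, and Col1a1, a fibroblast collagen, in 12 cells at 11.4 CPM. Of the astrocyte genes Aldoc was at 58.5 CPM (34 cells), Clu at 21.8, Slc1a2 at 18.0 and Gfap at 13.2 CPM, and the summed 8 astrocyte genes had a median of 9.80 CPM and a highest cell of 3026 CPM. Mbp, a myelin protein, had a count in 72 of the 84 cells at 246 CPM over the pool (95% Poisson interval 237 to 255, counting error only), against 214 CPM in the microglia of the plate. Cnp, another myelin gene, had 178 CPM in the pool and 191 CPM in the microglia. The summed 8 oligodendrocyte genes ran from 0 to 5107 CPM per cell with a median of 287. The part of these genes in any other result was not tested.

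All 16 lysosome genes on the list had a count in at least 50% of the cells, and 9 of 16 uptake receptors did. Ctsb, a cysteine protease of the lysosome, ranged from 5793 to 33502 CPM (median 13706), and Grn, the precursor of lysosomal granulins, from 3161 to 16860 CPM (median 9322). Fcgrt, the Fc receptor that recycles antibodies, was at 1131 to 8147 CPM (median 3972), and Gas6, which bridges dying cells to Axl and Mertk, at 1178 to 7672 CPM (median 3982). Apoe, the main lipid carrier of the brain, ranged from 21316 to 141152 CPM (median 50243). C1qa, C1qb and C1qc, the chains of the first complement component, had counts in all 84 cells, with medians of 4781, 7071 and 3310 CPM. For each of the 3 chains the level over the pool was the lowest of the 8 macrophage pools: C1qa was at 4849 CPM (4811 to 4888) against 6402 to 8891 CPM in the other 7. None of the 3 differed by 2-fold from every other pool. Of the 6997 genes compared between pools further on, 365 were the lowest in this pool.

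The Notch pathway was represented by its processing enzyme and the effector Rbpj more widely than by its receptors. Ncstn, a subunit of the gamma-secretase that cuts Notch receptors, had counts in 79 of the 84 cells at 469 CPM. Rbpj, the DNA-binding partner of the cut receptor, had counts in 75 cells at 159 CPM. Notch1 and Notch2 had counts in 40 and 37 cells at 90.1 and 95.6 CPM, and Hes1, a classical target, in 0 of 84 cells (upper limit 3.57%). Of the 15 pathway genes, 5 passed the filter of the variation step described next, and none was called variable.

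Cell-to-cell variation was measured after each cell was thinned to 50000 counts, so that the total was equal. A gene entered with counts in at least 25% of the cells and a mean of at least 20 CPM. Its excess variation was its log2 squared coefficient of variation (CV) minus the running median of 101 genes of similar mean, so an excess of 0 is the usual spread for that level. Of 3914 genes tested, 62 (1.58%) had an excess of 1 or more with no single cell holding over 20% of the counts. Just inside the limit were Parp14 (1.00) and Hip1 (1.01), and just outside Atad2 (0.99) and Mcm6 (0.99). Of the 62, 54 could be measured in the WT macrophages of plate 530s, where 17 again had an excess of 1 or more and 48 an excess above 0. Since excess is measured from a running median, about as many of all genes tested there lie above 0 as below it. With no limit on the top cell, 74 of 3414 genes (2.17%) reached an excess of 1 there, and 106 of 3914 (2.71%) in the pool. In the KO microglia of the same plate 60 were measurable and 23 reached 1. There 161 of 5062 genes (3.18%) did, again with no limit on the top cell.

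**Figure D2:**
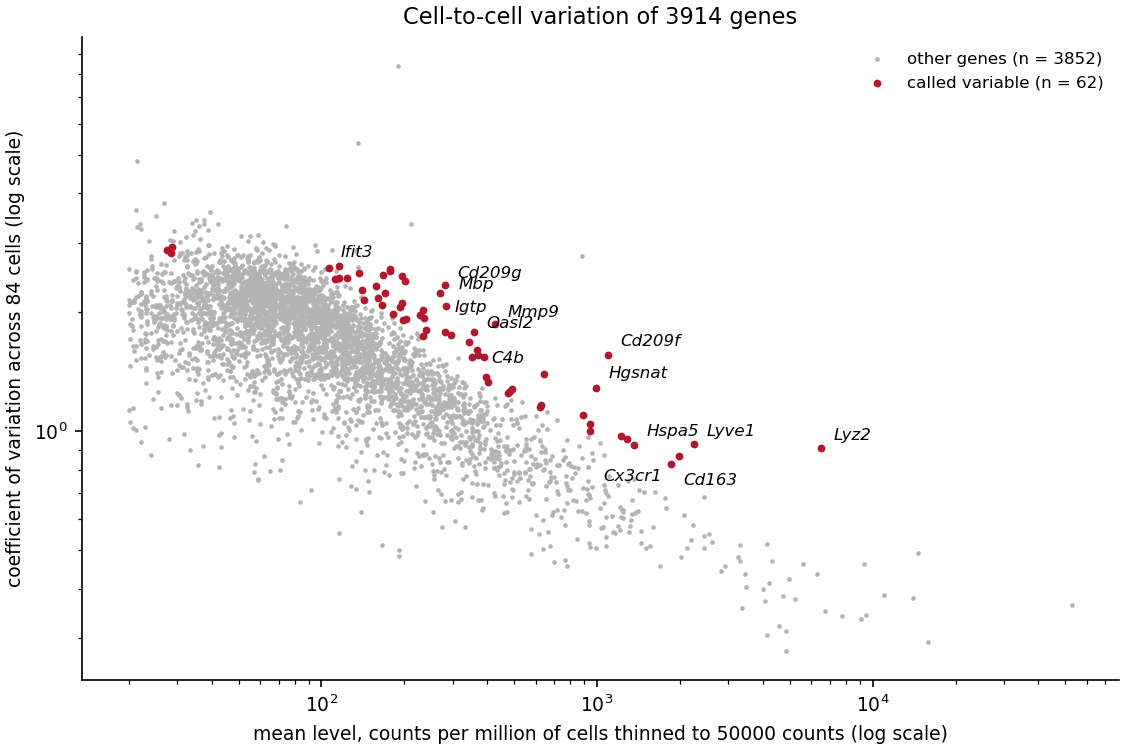
Coefficient of variation across the 84 cells (log axis) against the mean CPM of thinned cells (log axis) for the 3914 genes tested. Red points are the 62 genes called variable, which lie above the band of genes at the same mean.

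The C-type lectins Cd209f and Cd209g, relatives of the pathogen receptor DC-SIGN, were both called variable. Cd209f had the largest excess of the called genes at 2.45 with a CV of 1.56. It was at 0 in 23 of the 84 cells, its median was 443 CPM, its upper quartile 1247 CPM and its highest cell 8156 CPM. Cd209g (excess 2.02) was at 0 in 41 cells and reached 4334 CPM in the highest. The pair was also variable elsewhere: Cd209f had an excess of 2.83 in the WT macrophages of plate 530s, where its median cell was at 16.4 CPM, and 2.66 in the microglia of plate 060s, at 7.94 CPM. Counts of Cd209f in 31 of the 45 microglia mean that its presence alone did not set the macrophages apart. Of the 12 lectins on the list 9 were measured and 2 called, and their median excess was 0.20. Clec10a, a galactose-binding lectin, had an excess of 0.47 and a median of 467 CPM.

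Among the 18 perivascular macrophage markers, all of which were measured, only Lyve1 and Cd163 were called variable, and the median excess was -0.02. Lyve1 had an excess of 1.51 with quartiles of 476 and 3196 CPM. Cd163, the receptor for haemoglobin bound to haptoglobin, had an excess of 1.13, quartiles of 472 and 2870 CPM and a highest cell of 6795 CPM. Mrc1, in contrast, had an excess of -1.01, a narrower spread than genes of its level. In the WT macrophages of plate 530s the excess of Lyve1 was 2.31 and that of Cd163 was 1.16, so the same 2 markers passed the limit there.

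Mmp9, a protease that cuts gelatin and basement membrane collagen, had an excess of 2.06 and was at 0 in 37 cells, with an upper quartile of 503 CPM and a highest cell of 3143 CPM. Lyz2, the lysozyme of myeloid cells, was present in every cell but ran from 567 to 28748 CPM with an excess of 1.82, the only called gene of the 16 on the lysosome list, whose median excess was -0.38. Hgsnat, a lysosomal enzyme that acetylates heparan sulfate, had an excess of 1.84 and quartiles of 26.2 and 1462 CPM. Mmp9, Lyz2 and Hgsnat were above an excess of 1 in the WT macrophages of plate 530s as well, at 3.09, 1.67 and 1.84. Slc40a1, the iron exporter ferroportin, was the only called gene of 9 measured for iron and heme, with an excess of 1.27 and a range of 0 to 6397 CPM. Its level over the pool, 1225 CPM, was the highest of the 8 pools, where the others ran from 373 to 978 CPM. Of the 6997 genes compared between pools further on, 571 were the highest in this pool. None of the 10 measured nuclear oxidative phosphorylation genes was called, and their median excess was -0.80.

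Complement held 2 called genes of 8 measured. C4b, a component of the classical pathway, was at 0 in 36 cells and reached 2400 CPM (excess 1.30). Cfp, properdin, which stabilises the alternative pathway convertase, ranged from 0 to 4161 CPM (excess 1.06). The C1q chains lay at the other end, with C1qa at an excess of -1.40 and C1qb at -0.98. Cx3cr1, the fractalkine receptor shared with microglia, had counts in every cell but ran from 10.6 to 7256 CPM with an excess of 1.29, while in the microglia of the plate it was at 3206 to 12841 CPM with an excess of -0.92. Mbp was also called (excess 1.64), with a median of 29.0 CPM and a highest cell of 3248 CPM. The other genes among the 25 with the largest excess were Tor3a, Alg2, Rnf6, Themis2, Sdc3, Wdfy4, Itgb2, Ifi207, Irf1, Gramd1a, Calcoco1, Slfn8 and Prpf6, with excess values from 1.29 to 1.78. Igtp, an interferon-induced GTPase, had an excess of 1.88 in the pool and of -0.17 on plate 530s, was at 0 in 44 cells and reached 2882 CPM. It overlaps Irgm2, and reads of the overlap cannot be assigned here. Ifi207, Slfn8, Tor3a and Irf1 are also known to respond to interferon.

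The interferon response varied widely between cells. Of the 16 genes on the list 11 passed the filter, 3 of them (Ifit3, Irf7 and Oasl2) were called, and the median excess of the 11 was 0.89. Mx1, a GTPase that blocks viral replication, had an excess of 2.70 but was not called because 1 cell held over 20% of its counts. The summed 16 genes ran from 5.07 to 35140 CPM per cell with a median of 1013. Of the 84 cells, 24 were under 500 CPM, 17 from 500 to 1000, 20 from 1000 to 2000, 13 from 2000 to 5000, and 10 at 5000 or more. The sum thus fell off gradually, with no gap between the low and the high cells.

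The 10 cells at 5000 CPM or more had sums of 35140, 22168, 21668, 15626, 13117, 10562, 8295, 6660, 6256 and 5636 CPM. They had counts of 9 to 15 of the 16 genes, depths of 64417 to 395365 gene counts, and mitochondrial shares of 0.931% to 4.50%. They came from 7 rows of the plate (B, C, E, F, H, K and L). Across the 84 cells the 40 co-expressed interferon genes described further on had, as a mean rank, a Spearman rho of 0.21 with gene counts, 0.17 with genes detected, -0.03 with the Rn18s share and -0.03 with the mitochondrial share.

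**Figure D3:**
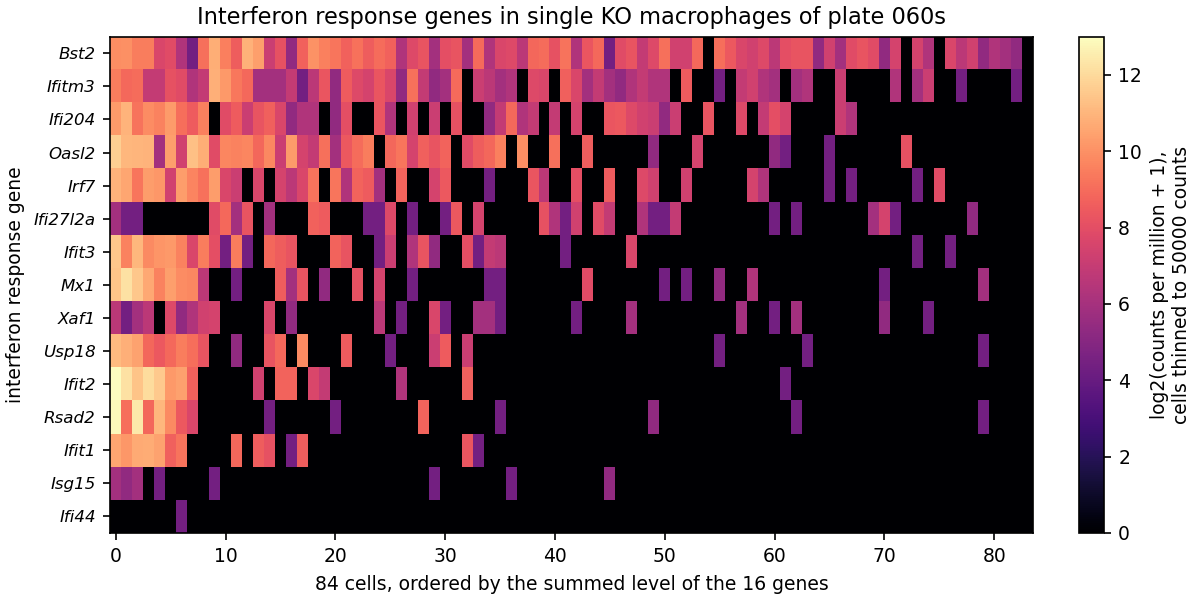
Levels of 15 of the 16 interferon response genes (rows) in the 84 cells (columns), as log2(CPM + 1) of cells thinned to 50000 counts, with cells ordered from left to right by falling summed level. Bst2 and Ifitm3 have counts in most cells, while Ifit1, Ifit2, Rsad2 and Mx1 are high mainly in the leftmost cells.

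The genes of the response fell into those present at a base level and those at 0 in most cells. Bst2, tetherin, which holds virus particles at the membrane, had counts in 80 of the 84 cells with a median of 243 CPM. Ifitm3, which blocks entry of viruses, had counts in 68 cells with a median of 84.2 CPM. Oasl2, of the oligoadenylate synthetase family, was at 0 in 34 cells with a median of 14.0 CPM and a highest cell of 3400 CPM. These 3 were thus read in most cells. Ifit3, an RNA-binding antiviral protein, was at 0 in 52 cells, with an upper quartile of 112 CPM and a highest cell of 3092 CPM. Mx1 was at 0 in 54 cells and reached 4680 CPM. Ifit2, which binds AU-rich RNA, was at 0 in 65 cells and reached 7912 CPM, and Rsad2 (viperin) was at 0 in 67 and reached 7498 CPM. Isg15, the ubiquitin-like modifier often used as a marker of this response, had counts in 15 cells and did not pass 67.2 CPM in any.

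The 11 measured interferon genes moved together across cells. Their 55 pairs had a median Spearman rho of 0.37, against 0.0068 for all 7657741 pairs of the 3914 genes, and 8 of the 55 were at 0.5 or more, where 289 of all pairs (0.00377%) were. In the WT macrophages of plate 530s the same 55 pairs had a median of 0.20, with 0 at 0.5 or more, and in the microglia of plate 060s 0.25 with 7. The share of all pairs at 0.5 or more was not counted in the 45 microglia. On plate 530s 15 of the 55 pairs were between genes that passed the filter there, and their median was 0.16. Without the 11 cells of the cluster led by interferon genes, described below, the median in the pool was 0.14 and 1 pair stayed at 0.5 or more. Those cells were grouped on genes that include Ifit3, Oasl2, Usp18 and Irf7, so leaving them out narrows the range of these genes. The lower rho is therefore no finding. The summed interferon level had a rho of 0.60 with Lgals3bp, a secreted glycoprotein induced by interferon, 0.45 with Tap1, the peptide transporter for MHC class I, 0.45 with the chemokine Ccl12 and 0.42 with the Fc receptor Fcgr1. It had a rho of 0.31 with C1qa, -0.06 with Mrc1, 0.18 with Lyve1, -0.22 with Cd209f and -0.22 with the summed perivascular markers.

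When genes linked by a rho of 0.5 or more were joined into groups, the interferon genes formed the second largest, with 40 genes and 59 pairs. With list members such as Usp18 and Ifi204 it held Ifit3b, Stat2, Irgm1, Igtp, Oas1a, Oas1g, Zbp1, Rtp4, Sp100, Parp14, Herc6, Trim30d, Ifi203, Ifi207, Ifi211, Ifi213, Slfn5, Slfn8, Samd9l, Il15 and others. Ifit3 had 20 partners in the group. Its 6 closest were Ifit3b (rho 0.62), the interferon brake Usp18 (0.61), Oasl2 (0.61), Rtp4 (0.59), the nucleic acid sensor Zbp1 (0.57) and the immunity-related GTPase Irgm1 (0.55). In the WT macrophages of plate 530s these 6 values were 0.41, 0.25, 0.38, 0.25, 0.27 and 0.32. All 59 pairs were between -0.05 and 0.42 there, with a median of 0.22. Only 10 of the 59 were between genes that passed the filter there, also with a median of 0.22. Ifit3 did not pass it, so none of its 6 values was among these 10. Ifit3 and Ifit3b are close copies, as are Oas1a and Oas1g, and how the authors' counter split reads between such copies is not given in the sources used here.

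Since these genes moved together, their promoters are shown for Ifit3 and for those of its 6 closest partners that the RefSeq table holds. Each window runs from 250 bases before to 50 bases after the gene's start in RefSeq on GRCm38.p6, 5' to 3' on the gene's own strand. Capitals mark the core of the interferon-stimulated response element, searched as GAAA, any 2 bases, then GAAA, on both strands. Ifit3 lies at chr19:34583279-34583578 on the plus strand, Ifit3b at chr19:34607707-34608006 on the plus strand, Irgm1 at chr11:48871371-48871670 on the minus strand and Oasl2 at chr5:114896684-114896983 on the plus strand.
Ifit3: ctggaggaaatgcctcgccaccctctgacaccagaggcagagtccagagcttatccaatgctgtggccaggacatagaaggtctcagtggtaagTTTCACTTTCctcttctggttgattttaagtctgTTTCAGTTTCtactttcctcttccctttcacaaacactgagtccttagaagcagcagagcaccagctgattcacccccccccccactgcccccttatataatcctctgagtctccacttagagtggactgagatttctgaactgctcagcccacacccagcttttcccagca
Ifit3b: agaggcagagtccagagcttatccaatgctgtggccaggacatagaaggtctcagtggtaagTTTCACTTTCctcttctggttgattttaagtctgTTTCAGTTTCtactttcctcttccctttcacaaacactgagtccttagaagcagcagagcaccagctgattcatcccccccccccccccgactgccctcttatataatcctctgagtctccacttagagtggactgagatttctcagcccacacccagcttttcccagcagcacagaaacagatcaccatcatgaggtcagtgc
Irgm1: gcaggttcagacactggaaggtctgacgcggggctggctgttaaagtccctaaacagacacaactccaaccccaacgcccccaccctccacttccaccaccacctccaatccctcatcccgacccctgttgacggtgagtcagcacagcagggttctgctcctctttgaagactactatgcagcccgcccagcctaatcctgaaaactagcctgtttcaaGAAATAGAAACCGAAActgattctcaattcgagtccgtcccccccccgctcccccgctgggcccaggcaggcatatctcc
Oasl2: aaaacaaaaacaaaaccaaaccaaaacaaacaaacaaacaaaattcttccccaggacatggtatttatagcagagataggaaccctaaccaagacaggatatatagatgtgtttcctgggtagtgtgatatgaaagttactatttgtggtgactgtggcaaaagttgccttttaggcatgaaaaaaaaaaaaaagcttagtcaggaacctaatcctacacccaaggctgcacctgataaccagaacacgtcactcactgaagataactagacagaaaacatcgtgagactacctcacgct

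Ifit3 held the core at 156 and 122 bases before its start and Ifit3b at 188 and 154 bases. Irgm1 held 2 overlapping matches at 30 and 24 bases before its start, and no match was found in the window of Oasl2. Of the 40 genes of the group 30 had an entry, and 17 of these (56.7%) held the core in the window. The core was in 952 of all 27025 promoters (3.52%), and among the promoters of the genes of the pair step 3.86%. The interferon gamma element, searched as TTC, any 3 bases, then GAA, on both strands, was found in 6 of the 30 (20.0%) against 8.37% of all promoters, and it overlapped the first motif in 2. A match says only that these letters are in the window.

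The interferon sum was compared between pools by its highest cells and by its median. In the pool 10 of 84 cells (11.9%, exact 95% binomial interval 5.86 to 20.8) had a sum of 5000 CPM or more. The WT macrophages of plate 530s had 3 of 133 (2.26%, 0.468 to 6.45), those of plate 059s 2 of 47 and those of plate 529s 1 of 26. The Het macrophages of plate 529s had 2 of 17 (11.8%, 1.46 to 36.4), and those of plates 056s and 524s 0 of 35 and 0 of 14. The KO macrophages of plate 524s had 0 of 19 (upper limit 15.8%). The 2 pools labelled KO thus do not show whether the high cells go with the genotype, and the Het pool of plate 529s had a share close to that of plate 060s. The intervals cover counting error only. In the KO microglia of plate 060s 1 of 45 cells reached 5000 CPM. The medians of the 8 pools ran from 607 to 1853 CPM, and the pool's 1013 CPM lay within them. The WT macrophages of plate 529s had the highest median, with 12 of 26 cells at 2000 CPM or more, against 23 of 84 in the pool.

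**Figure D4:**
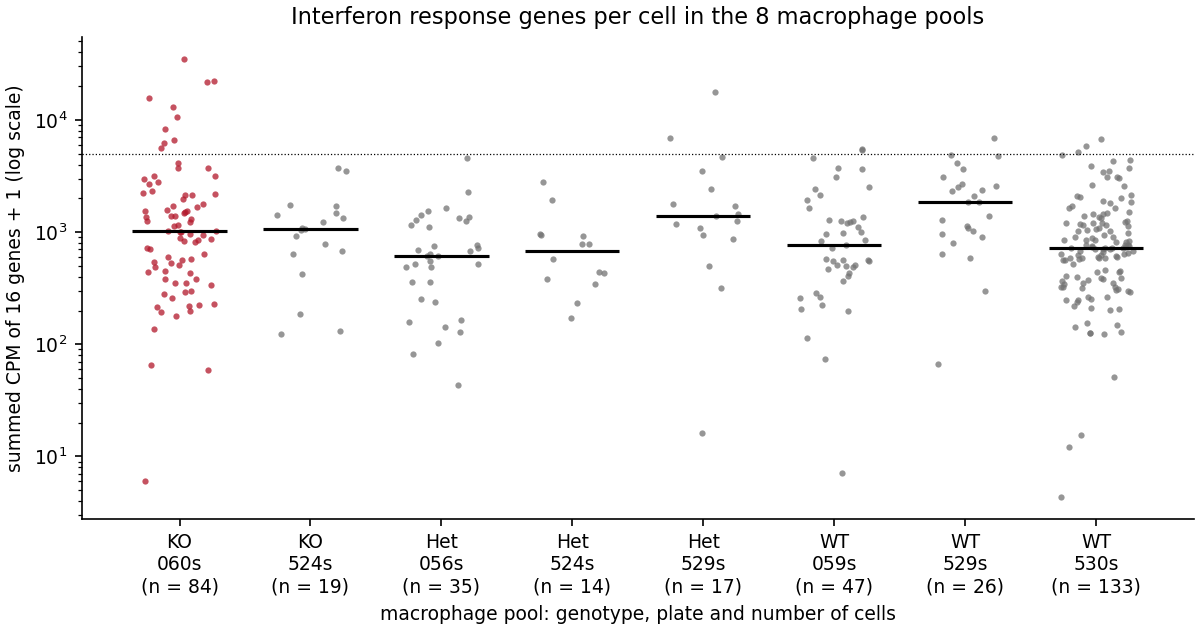
Summed CPM + 1 of the 16 interferon response genes per cell (log axis) in the 8 macrophage pools. Points are cells, bars are medians, and the dotted line marks 5000 CPM, which 10 of the 84 cells of KO 060s reach.

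With the interferon group included, the 289 co-expressed pairs linked 172 genes into 28 groups, 24 of them of 2 genes. At -0.5 or less there were 2 pairs (2.61e-05%). Of the 289 pairs 218 could be measured in the WT macrophages of plate 530s, where 21 reached 0.5 and the median was 0.26. The median over all pairs measured there was 0.0080. There 25 of 5205151 pairs (0.00048%) reached 0.5.

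**Figure D5:**
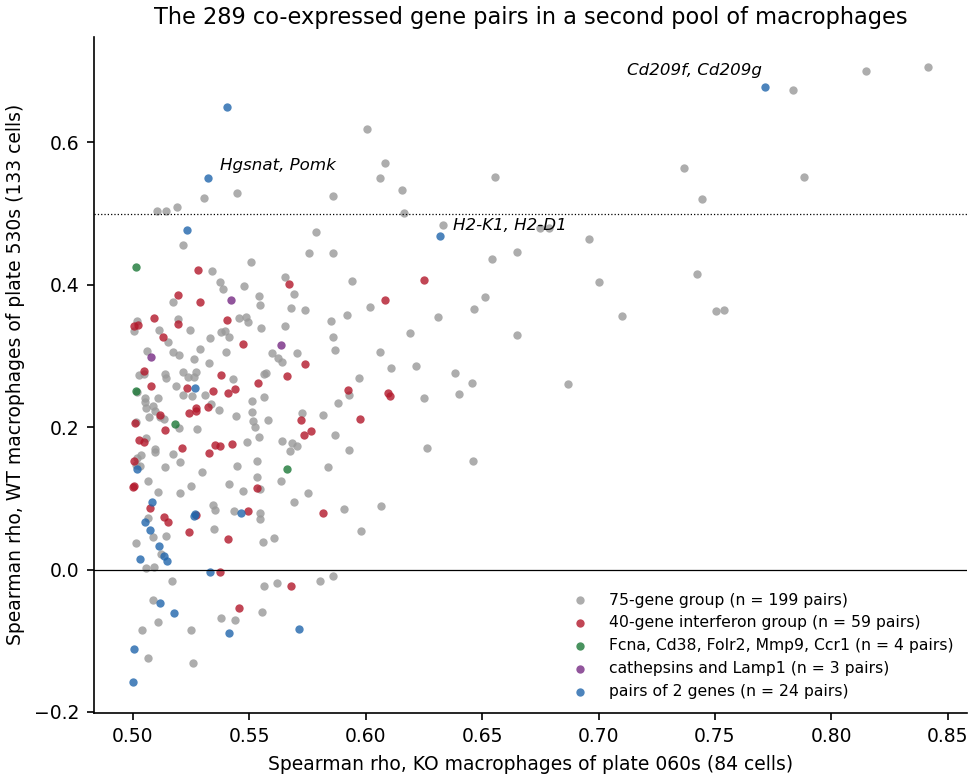
Spearman rho of the 289 pairs in the pool (84 cells) against the rho of the same pairs in the WT macrophages of plate 530s (133 cells), coloured by group. The dotted line marks 0.5; Cd209f with Cd209g, Hgsnat with Pomk and 19 other measured pairs lie above it.

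The largest group, of 75 genes and 199 pairs, held many genes with short exons in sum. Among its 44 named genes were Tmsb4x (thymosin beta 4, 25 partners), Tyrobp and Fcer1g, the signalling adaptors of myeloid receptors (17 and 15), the platelet factor gene Pf4 (12), the C1q chains, the ferritin chains Fth1 and Ftl1, B2m and Cst3. Ribosomal protein and mitochondrial genes made up most of the rest. Length was taken as the merged exons of all transcripts of a gene. Its median in the group was 1382 bases against 4661 bases for the genes of the pair step, of which 98.8% had a length in GENCODE M21. Slc34a2 and Vmn1r13, with 19 and 18 partners, were longer, at 5013 and 5315 bases. The mean rank of its genes had a rho of -0.46 with gene counts, 0.56 with genes detected after thinning, 0.52 with the mitochondrial share and 0.38 with the ERCC share. The part of these measures in the group was not tested. Its pairs had a median rho of 0.26 in the WT macrophages of plate 530s and 0.43 in the microglia of plate 060s, with 18 and 77 of 199 at 0.5 or more. These values come from 133 and 45 cells. The share of all pairs at 0.5 or more was not counted in the microglia, so the 77 cannot be set against the 18. The same group held Slc34a2, Vmn1r13 and Zfp937, of which Slc34a2, a phosphate transporter of lung epithelium, had a rho of 0.81 with Vmn1r13 and 0.74 with Zfp937.

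A group of 5 genes joined receptors and enzymes of these macrophages. Fcna (ficolin A, a pattern recognition lectin) was linked to the NAD-consuming enzyme Cd38 (rho 0.57), the folate receptor Folr2 (0.50) and Mmp9 (0.50), and Cd38 to the chemokine receptor Ccr1 (0.52). In the WT macrophages of plate 530s these 4 values were 0.14, 0.43, 0.25 and 0.20. Fcna was at 0 in 18 of the 84 cells, had a median of 233 CPM and reached 19700 CPM. Its excess was 3.92, but it was not called because 1 cell held 27.1% of its thinned counts. A second small group held the lysosomal proteases Ctsb, Ctsd and Ctsz and the membrane protein Lamp1, with rho values of 0.51 to 0.56 in the pool and 0.30 to 0.38 on plate 530s. Cd209f and Cd209g, neighbours on chromosome 8, had a rho of 0.77 in the pool and 0.68 on plate 530s. The MHC class I heavy chains H2-K1 and H2-D1 had 0.63 and 0.47, and the chemokines Ccl2 and Ccl7, which attract monocytes, 0.53 and 0.26. Hgsnat and Pomk, which lie next to each other, had 0.53 and 0.55, and Adap2 and its antisense transcript Adap2os 0.52 and 0.48. Whether the authors' counting used strand is not given in the sources used here, so reads of overlapping genes such as Adap2 and Adap2os cannot be told apart. For Hgsnat and Pomk no exon overlap was listed. Most other pairs of 2 genes, such as Stat6 with Tfe3 (0.52 and -0.06), had values near 0 on plate 530s.

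The identity genes of these macrophages were only weakly linked to each other. The 153 pairs of the 18 perivascular markers had a median rho of 0.04 in the pool and 0.06 on plate 530s, but 0.30 in the microglia of plate 060s, where their sum was lower. Closest to Mrc1 were the growth factor receptor Csf1r (rho 0.39, and 0.37 on plate 530s), Cd86 (0.37 and 0.09), Cd164 (0.36 and 0.25), Gas6 (0.35 and 0.36), F13a1 (0.33 and 0.21) and Maco1 (0.33 and -0.04). Closest to Lyve1 were Ifitm3 (0.48, and 0.03 on plate 530s), Fcna (0.46 and 0.31), Cd38 (0.42 and 0.32), Ccl9 (0.41 and 0.11), Magt1 (0.38 and 0.11) and Folr2 (0.38 and 0.42). Csf1r, Gas6, Fcna, Cd38 and Folr2 were thus the partners with a rho of 0.3 or more in both pools of cells. For C1qa the partners were C1qb (0.59 and 0.52), C1qc (0.51 and 0.50), Ifitm2 (0.46 and 0.14), C4b (0.44 and 0.14), Alox5ap (0.44 and 0.24) and Plcg2 (0.44 and 0.15). For Apoe they were Itm2b (0.41 and 0.15), Sfi1 (0.38 and -0.06), Klf3 (0.37 and -0.07), Lyz2 (0.36 and 0.49), Mylip (0.36 and 0.15) and Akap9 (0.34 and 0.10). For Hmox1, heme oxygenase, all 6 were at 0.36 to 0.39 in the pool and at -0.07 to 0.12 on plate 530s. Each list holds the 6 highest values of a gene against all others of the 3914 genes. About 1 in 1000 of all pairs in the pool had a rho of 0.36 or more. An average gene thus has a few such partners. The partners of Mrc1, Apoe and Hmox1, at 0.33 to 0.41, lay near that level. Their values in the pool alone are therefore no finding.

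Perivascular macrophages are often divided into Lyve1-high cells with little MHC class II and the reverse. In the pool MHC class II genes had few counts. H2-Aa was at 12.1 CPM (10.2 to 14.2), the 3rd highest of the 8 pools, where the others ran from 0 to 19.4 CPM. H2-Ab1, at 12.3 CPM, and H2-Eb1, at 7.23 CPM, were the 2nd highest. In contrast, Cd74, the invariant chain, was at 51.6 CPM (47.7 to 55.7), the lowest of the 8 pools, where the others ran from 54.0 to 224 CPM. The summed thinned counts of H2-Aa, H2-Ab1, H2-Eb1 and Cd74 had a median of 2 per cell; 26 cells were at 0, 10 had 10 or more, and the highest had 75. Their sum had a rho of 0.11 with Lyve1, 0.01 with Mrc1, 0.11 with F13a1 and -0.02 with Cd209f, and on plate 530s -0.04, -0.15, 0.02 and 0.17. At counts this low a weak rho is no finding.

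Clustering of the cells on 10 principal components of the 500 genes with the largest excess gave 3 clusters of 39, 34 and 11 cells. Since the same cells and genes made the clusters, their leading genes are only described. Cluster 3, the 11 cells, had Mx1, Ifit3b, Usp18, Ifit3, Igtp, Tor3a and Oas1g among its leading genes. Its interferon sums ran from 2692 to 35140 CPM (median 10562), it held 9 of the 11 cells with the highest sums, and it came from 9 plate rows. Its median Mrc1 was 11767 CPM and its median Lyve1 2387 CPM. Cluster 1 was led by Fcna, Cd209f, Cd209g, Pbrm1, Mpv17l2, Cdk2, Reps2 and Prdx6, with a median Cd209f of 1083 CPM. Cluster 2 was led by Gga3, Zfp397, Esyt1, Ehmt1, Elavl1, Ubac2, Foxo3 and Sppl2b, which share no function that was tested, and its median Cd209f was 0. The median depth was 142598, 110569 and 176572 gene counts in clusters 1, 2 and 3, and the part of depth in the division was not tested. The first component took 4.64% of the variance and the second 2.59%. None of the clusters was named as a cell type, and all carried Mrc1 and Stab1.

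Genes whose summed level in the pool was at least 2-fold above or below every one of the 7 other macrophage pools were counted last. A gene entered with at least 20 CPM and counts in at least 25% of the cells in the same pool, for any of the 8. Of 6997 genes tested 24 (0.343%) were above and 12 (0.172%) below. By the same rule the other pools had 1 to 148 genes above and 11 to 711 below, and both counts were largest for the 14 Het cells of plate 524s. When the cell with the highest count of a gene was left out of each pool, 18 of the 24 and 4 of the 12 remained, among 51 and 4 genes called. That step takes a larger part from a pool of 14 cells than from the 84 here. It can thus raise calls above and lower calls below, so these counts do not show how firm the calls are. With fewer plates to pass, the counts were higher: 50 above and 33 below without plate 529s, 39 below without plate 524s and 21 below without plate 056s. Ifit3b was at 105 CPM (99.7 to 111) in the pool and at 0 to 28.9 CPM in the others, with counts in 24 of the 84 cells, 1 of which held 32.0% of them. Ifit2 was at 389 CPM against 0 to 188 CPM. Ifit1 was at 149.7 CPM against 0 to 47.3 CPM but did not enter, because no pool with 20 CPM had counts in enough cells (19 of 84 here). Over the 12 measured interferon genes the median log2 difference from the median of the other pools was 1.501, against 0.06 over all 6997 genes, while 1 of the 12, Ifit2, was 2-fold above every pool and 3 were highest of the 8. Of all 6997 genes 571 were the highest in this pool. When the cell with the highest count of the gene was left out of each pool, Ifit2 no longer passed and Ifit3b did, but that step favours calls above. The pooled sum of the 16 genes was 3108 CPM (3078 to 3139) and lay below the 3518 CPM (3446 to 3590) of the Het macrophages of plate 529s. In the pool the 8 cells with the highest sums held 58.1% of the 16-gene CPM of all cells, so pooled levels of these genes rest largely on few cells.

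Among immediate early genes Fos, which cells switch on within minutes of stimulation and which is also induced by cell isolation, was at 15.4 CPM (13.3 to 17.7) in the pool and at 89.2 to 792 CPM in the others, and its value differed 5.50-fold from the nearest pool. It had counts in 17 of the 84 cells, 1 of which held 50.5% of them. Zfp36, which destabilises cytokine mRNA, was at 61.3 CPM (57.0 to 65.7) against 157 to 956 CPM. Per1, a clock gene that glucocorticoids also induce, was at 47.7 CPM against 133 to 437 CPM. Of 15 measured genes on the immediate early list 5 were the lowest of the 8 pools and 2 (Fos and Zfp36) 2-fold below all others, and the median log2 difference was -0.997. Over all genes 365 of 6997 were the lowest in this pool, and the median difference was 0.06. Klf6 and Ier3 were each the 5th highest of the 8 pools, at 194.7 CPM (168 to 564 in the others) and 35.3 CPM (10.8 to 177). The KO microglia of the plate had 5.09 CPM of Fos and 105 CPM of Zfp36. The other genes below all pools that the rule names were Zadh2, Slc7a6os, Tpcn2, Mrpl39, Trim68, Med11 and Prkrip1, all at 2.38 to 9.85 CPM in the pool. None of these 7 remained when the top cell was left out of each pool, while Fos, Zfp36 and Per1 did. That step lowers pools of few cells most and so works against calls below, and the loss of the 7 is no finding.

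Of the 24 genes above, 16 had counts in at least 90% of the cells. The 10 named with the largest difference were Ifit3b, Nfasc, Acnat1, Tpst1, Gata6, Sass6, Olfr1385, Pank4, Vmn1r13 and Zfp937. Several are known from other tissues, such as Vmn1r13 from the vomeronasal organ and Olfr1385 from the olfactory epithelium. Vmn1r13 was at 486 CPM in the pool (97.8 to 232 CPM in the others) and had counts in 100% of the cells with an excess of -1.51. Nfasc, a neuronal adhesion molecule, was at 48.8 CPM (4.88 to 17.0) in 97.6% of cells with an excess of -2.75. Gata6, a transcription factor of peritoneal macrophages, was at 27.8 CPM (2.92 to 11.3) in 91.7% of cells with an excess of -2.16. Their excess values show a spread far narrower than that of other genes at the same mean. They were also present in the KO microglia of the plate, Vmn1r13 at 364 CPM, Nfasc at 33.8 CPM and Gata6 at 15.8 CPM. What these counts derive from was not tested.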

How the data were processed

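The data were SMART-seq2 libraries of single brain cells, 1 cell per sample. The authors deposited raw counts per gene, ERCC sequence and Rn18s. STAR is named per the submitters' processing notes, and its version, the genome build, the counting program and the use of strand are not given in the sources used here. Members, lists and tests were chosen with earlier results of these data known.

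Cells were grouped by the labels for cell type, genotype and plate. CPM was computed over gene counts without ERCC and Rn18s. Variation, co-expression and clusters used cells thinned to 50000 counts, with counts in at least 25% of cells and a mean of at least 20 CPM per gene. Clustering used Ward's method on 10 components of log2(CPM + 1). Comparisons between pools used summed counts as CPM + 1, over genes with at least 20 CPM and counts in at least 25% of cells in the same pool, for at least 1 pool. No doublet caller was run, and no test was made, since a pool is 1 sample. Intervals are exact 95% Poisson or binomial intervals; an upper limit beside a count of 0 is 3 cells of the total. Without molecular identifiers, both cover counting error only. Scripts were tested on simulated data. Alternatives changed depth limits, thresholds, scaling (edgeR 4.0.16 and DESeq2 1.42.0 factors, R 4.3.3) and left out plates. Python 3.11.15, scipy 1.17.1 and scikit-learn 1.9.0 were used. Depth was 51593 to 397959 gene counts per cell. Named genes were the 4 markers, the 2 highest and 2 most variable members of each list, defining markers at 0, the 25 most variable genes, the 6 closest partners of fixed genes, 8 genes per cluster and 10 genes apart in each direction. Predicted, ribosomal protein and mitochondrial genes were counted but not named there. Other genes named were chosen after their values were seen. Values of some list members are not reported here.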

Additional observations from a re-analysis of the deposited data

How the results depend on the processing

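The 289 co-expressed pairs became 1539 in cells with at least 100000 gene counts, 90 with at least 20000, 473 without thinning, 46 at a rho of 0.6 and 184 after the rank of genes per cell was removed. The cells and genes used changed with the depth limit, and without thinning other genes can pass the filter. The first 3 of these counts are therefore not shares of the same pairs. The 62 variable genes became 106 with no limit on the top cell and 15 at an excess of 1.5. The rho of MHC class II with Lyve1 became -0.0056 in cells with at least 20000 gene counts. The 24 genes above all pools became 15 at a minimum of 50 CPM, 51 without the top cell of each gene and 4 at 3-fold, and 27 to 50 with a plate left out. The 12 below became 4 without the top cell, 4 at 3-fold and 6 with a pseudocount of 5, and 15 to 39 with a plate left out. Leaving out the top cell lowers pools of few cells most, which favours calls above and works against calls below. With edgeR factors the counts were 19 and 14, and with DESeq2 factors 16 and 15. Of 15 alternatives Ifit3b and Fos were called in 15. The 11-cell cluster led by interferon genes had counterparts of 11 cells with 2 or 4 clusters, 9 with 1000 genes, 17 with k-means and 15 without thinning, which shared 11, 11, 9, 11 and 10 cells with it. The causes were not tested.

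No paired analysis was possible because no label names an animal and the pool is 1 sample without a test. Depth limits the reading of zeros, since a gene at 0 in a cell is only not detected at that depth.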
